A study of Mus musculus with 12 samples.

Results

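The GATA transcription factors described here were Gata2, Gata3, Gata4 and Gata6, read through every probe set that the platform annotation assigns to 1 of these symbols. They made up 7 of 20380 probe sets with a single gene symbol, and 4 of 12393 genes. Gata2, Gata4 and Gata6 had a pair of probe sets each and Gata3 had 1. RNA was measured on 12 Affymetrix arrays, 3 in each of 4 groups of cultured mouse fibroblasts. The groups were GFP+ and GFP- cells from inguinal fat, which lies under the skin, and GFP+ and GFP- cells from epididymal fat, which lies inside the abdomen. All groups came from male mice, 6 to 8 weeks old, with FVB and C57BL/6 background, that carried the Zfp423-GFP transgene, the GFP- cells included. Stromal vascular cultures, the cells left once fat cells are removed, were separated by green fluorescent protein (GFP), grown again in medium with serum and harvested while still dividing. The sources used here do not give the regulatory sequence that drives GFP, nor whether animals were pooled or what separates the 3 replicates of a group. A p-value here therefore covers the variation among the arrays at hand, which may be technical.

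GATA factors are zinc-finger proteins named for the short DNA sequence they bind. Gata1, Gata2 and Gata3 are known mostly from blood cells and Gata4, Gata5 and Gata6 from heart, gut and gonad. In mouse white fat Gata2 and Gata3 are known from preadipocytes, where they hold back fat cell formation by repressing Pparg, the nuclear receptor that drives it, and by binding C/EBP proteins. Gata6 is known from the mesothelium, the lining of abdominal organs and fat, and from resident macrophages of the peritoneal cavity. FOG proteins, encoded by Zfpm1 and Zfpm2, bind GATA factors and modify what they do at their targets.

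Signals are linear intensities of probe sets, and fold changes are differences of log2(signal + 16) from a limma fit over all genes, called at an adjusted p under 0.05. A probe set's signal can be compared between groups but not with another probe set's. Array medians lay between 347 and 371 and replicate arrays within a group correlated at r from 0.993 to 0.995 (across genes, which are no independent replicates). Genes of the lowest 30% of means, under a signal of 77.7, are called weakly detected. Olfactory receptor genes, which fibroblasts do not use, gave a level for silent genes: over 31 of them the median of the group means was between 19.9 and 22.3, and the 90th percentile between 44.6 and 66.7. Zfp423, the gene the sort reports on, was higher in GFP+ cells of both depots, at 124 ± 22.9 (SD, n = 3) against 57.4 ± 13.8 in inguinal and 242 ± 35.1 against 29.4 ± 3.80 in epididymal cells. Pdgfra, a receptor of fat-tissue fibroblasts, had group means from 4627 to 7382.

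Gata6 set the epididymal GFP- cells apart from all others. Its probe set 1425464_at read 787.5, 757 and 773 in inguinal GFP+ cells and 742, 811 and 716 in inguinal GFP- cells. It read 2069, 2206 and 2169 in epididymal GFP+ cells and 7141, 7828 and 7967 in epididymal GFP- cells. The inguinal fractions overlapped, every epididymal GFP+ array lay above them, and every epididymal GFP- array lay above all 9 others. The probe set 1425463_at gave the same order, with 344, 286 and 354 in inguinal GFP+, 298, 338 and 300.4 in inguinal GFP-, 839, 775 and 851 in epididymal GFP+, and 3299.6, 3369.7 and 3225 in epididymal GFP- cells.

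In epididymal cultures Gata6 was 3.54-fold lower in GFP+ than in GFP- cells (log2 fold change -1.82, SE 0.05, adjusted p = 9.03e-14 from limma by the Benjamini-Hochberg method). In inguinal cultures the difference was 0.03 on the log2 scale, with a 95% interval from -0.08 to 0.14 (adjusted p = 0.787). The GFP difference itself differed between depots by 1.85 ± 0.07 (adjusted p = 1.23e-11). Between depots Gata6 was 2.74-fold lower in inguinal than in epididymal GFP+ cells (-1.46 ± 0.05, adjusted p = 2.98e-12) and 9.92-fold lower in inguinal than in epididymal GFP- cells (-3.31 ± 0.05, adjusted p = 4.35e-17). The probe set 1425463_at gave -1.99 in epididymal cultures, and -1.29 and -3.34 between depots in GFP+ and GFP- cells. Values after ± are SDs for signals and SEs for log2 fold changes throughout, with n = 3. In RNA from bulk cultures a smaller share of cells that express a gene and less RNA per cell cannot be told apart.

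**Figure D1:**
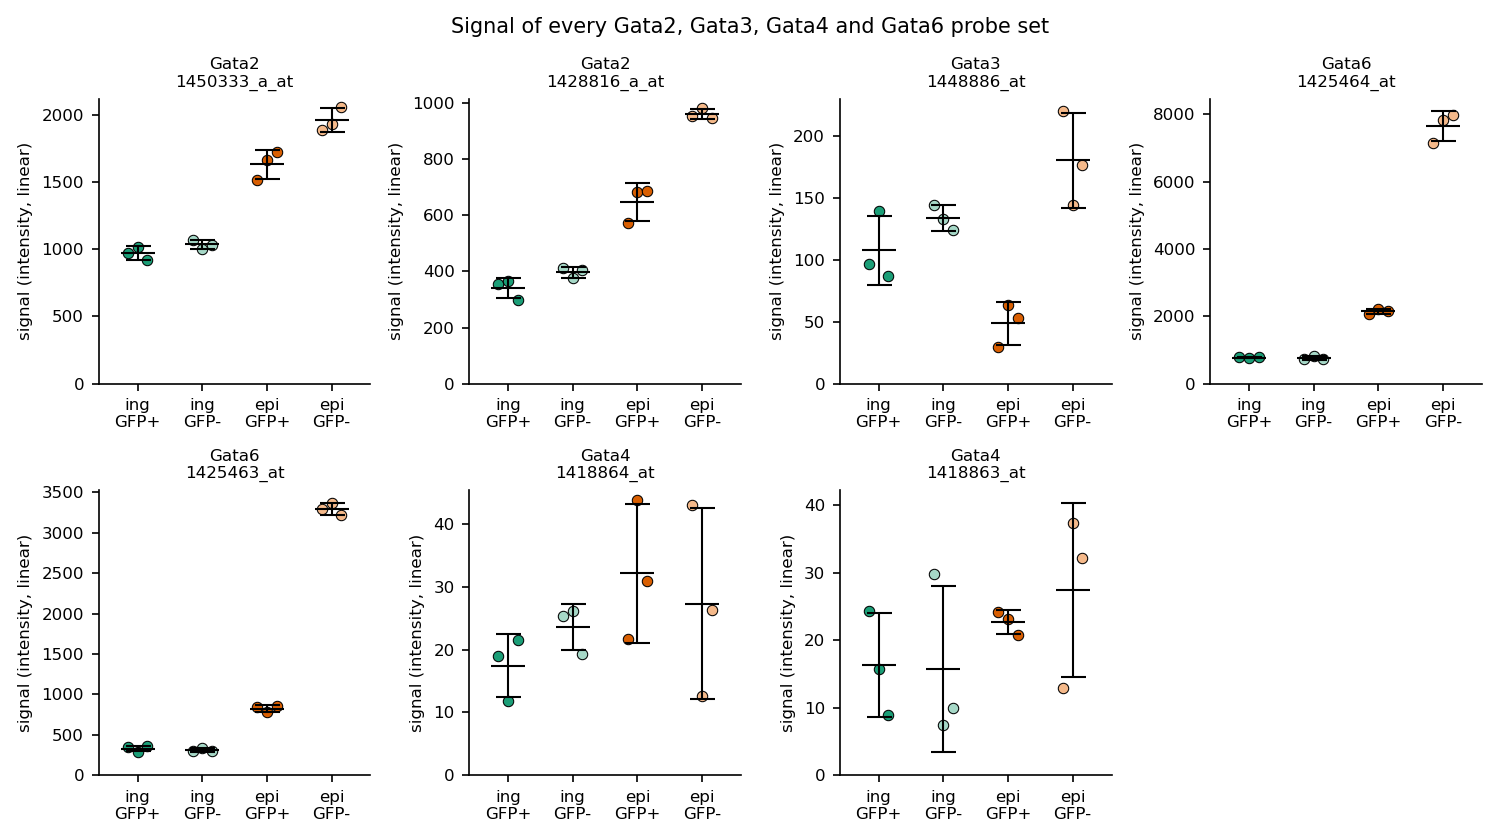
Signal (intensity, linear axis from 0) of all 7 probe sets of Gata2, Gata3, Gata4 and Gata6 in the 4 groups (ing, inguinal; epi, epididymal). Points are arrays, horizontal bars the mean and whiskers the SD of 3 arrays. Both Gata6 probe sets step up from inguinal to epididymal GFP+ to epididymal GFP- cells, and both Gata2 probe sets rise from inguinal to epididymal cells. Gata3 is lowest in epididymal GFP+ cells, and Gata4 is at a low level in every group.

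Gata2 was higher in epididymal than in inguinal cells, by more than it differed between GFP+ and GFP- cells. Its probe set 1450333_a_at read 969, 1019.9 and 916 in inguinal GFP+ cells and 1069, 1005 and 1034 in inguinal GFP- cells. It read 1512, 1662 and 1722 in epididymal GFP+ cells and 1889, 1934 and 2061 in epididymal GFP- cells. All epididymal arrays lay above all inguinal arrays, the epididymal fractions did not overlap, and the inguinal fractions did. Gata2 was 1.67-fold lower in inguinal than in epididymal GFP+ cells (-0.74 ± 0.06, adjusted p = 2.5e-08) and 1.88-fold lower in inguinal than in epididymal GFP- cells (-0.91 ± 0.06, adjusted p = 9.47e-10). Within epididymal cultures it was 1.2-fold lower in GFP+ than in GFP- cells (-0.26 ± 0.06, adjusted p = 0.00119). In inguinal cultures the difference was -0.10, with a 95% interval from -0.22 to 0.02 (adjusted p = 0.335). The depots' GFP differences were 0.17 apart (95% interval -0.004 to 0.34, adjusted p = 0.129); this was called after median centring of the arrays (0.24, adjusted p = 0.0257).

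The other Gata2 probe set, 1428816_a_at, gave larger differences in the same directions. It read 357, 367 and 299 in inguinal GFP+, 413, 376 and 405 in inguinal GFP-, 572, 685 and 689 in epididymal GFP+, and 956, 982 and 948 in epididymal GFP- cells, with no overlap between any neighbouring groups. In a fit over all probe sets its epididymal GFP difference was -0.56 ± 0.09 (adjusted p = 7e-05), against -0.26 for 1450333_a_at. Its inguinal difference of -0.22 was not called (adjusted p = 0.146). The difference between the depots' GFP differences was called for this probe set (0.35 ± 0.12, adjusted p = 0.0447). Whether the probe sets detect different Gata2 transcripts was not tested.

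Gata3 was low in epididymal GFP+ cells. It read 96.5, 139 and 87.1 in inguinal GFP+ cells, 145, 133 and 124 in inguinal GFP- cells, 29.6, 63.6 and 52.9 in epididymal GFP+ cells, and 220.4, 144 and 176 in epididymal GFP- cells. Every epididymal GFP+ array lay below the 9 others and under the level called weakly detected, while the remaining groups overlapped their neighbours in level. In epididymal cultures Gata3 was 3.08-fold lower in GFP+ than in GFP- cells (-1.62 ± 0.22, adjusted p = 1.21e-05). In inguinal cultures the difference was -0.30 (95% interval -0.76 to 0.16, adjusted p = 0.462), and the depots' GFP differences were 1.32 ± 0.31 apart (adjusted p = 0.00277). Gata3 was 1.93-fold higher in inguinal than in epididymal GFP+ cells (0.95 ± 0.22, adjusted p = 0.00167), the opposite direction to Gata2 and Gata6. In GFP- cells the depot difference was -0.38 (95% interval -0.84 to 0.09, adjusted p = 0.163). With levels this close to those of silent genes, the size of a Gata3 fold change depends on the pseudocount: the epididymal GFP difference ranged from -1.91 to -1.12 over the alternatives and kept its call in all 22.

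Regulatory sequence is shown for Gata2 and Gata3, the preadipocyte members, because GATA genes are known to be regulated by GATA factors. RefSeq promoter windows of build GRCm38.p6 ran from 250 bases before to 50 after a transcription start. Windows on 1 chromosome were left out of the selection by gene. No Gata4 or Gata6 window was kept, which need not have the same reason for both genes and does not show that there is none. Windows were kept for 2 of the 4 genes: 2 for Gata2 and 1 for Gata3. Each was searched on both strands for the GATA hexamers AGATAA or AGATAG and also TGATAA or TGATAG, shown in capitals where found. The Gata2 windows lie at chr6:88193641-88193940 and chr6:88198414-88198713 on the plus strand, and the Gata3 window at chr2:9878551-9878850 on the minus strand.
Gata2 upstream start: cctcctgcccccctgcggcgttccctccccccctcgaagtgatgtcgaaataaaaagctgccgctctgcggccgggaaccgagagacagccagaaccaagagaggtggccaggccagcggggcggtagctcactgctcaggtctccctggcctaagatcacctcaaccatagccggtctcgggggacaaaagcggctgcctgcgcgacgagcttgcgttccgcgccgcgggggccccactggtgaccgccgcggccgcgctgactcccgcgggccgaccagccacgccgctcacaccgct
Gata2 downstream start: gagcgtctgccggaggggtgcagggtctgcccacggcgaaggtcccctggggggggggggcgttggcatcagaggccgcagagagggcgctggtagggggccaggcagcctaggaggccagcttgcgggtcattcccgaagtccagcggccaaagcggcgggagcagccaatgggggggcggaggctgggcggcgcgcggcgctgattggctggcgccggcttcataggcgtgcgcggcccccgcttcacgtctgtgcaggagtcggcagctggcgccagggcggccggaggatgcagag
Gata3: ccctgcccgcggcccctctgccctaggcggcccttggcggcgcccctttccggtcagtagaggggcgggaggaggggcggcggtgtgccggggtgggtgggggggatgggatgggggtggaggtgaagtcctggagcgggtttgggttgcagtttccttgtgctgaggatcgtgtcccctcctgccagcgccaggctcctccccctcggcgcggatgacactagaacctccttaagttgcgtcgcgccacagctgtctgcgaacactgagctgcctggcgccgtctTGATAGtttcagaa
The Gata3 window held 1 match, TGATAG on the coding strand, whose leading base is the 37th after the start, and the Gata2 windows held none. Over all 32851 windows of this length 29.8% held at least 1 match. The 3 Pparg windows held none. A match is a description of letters and not a binding site, and the arrays do not tell which start a Gata2 transcript used.

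Gata4 gave no signal that could be told from silent genes. Its probe set 1418864_at read between 11.9 and 21.6 in inguinal GFP+, 19.3 and 26.1 in inguinal GFP-, 21.7 and 43.8 in epididymal GFP+, and 12.6 and 43.1 in epididymal GFP- cells. Group means of 1418863_at ran from 15.7 to 27.5. These values lie within the range of the olfactory receptor genes, so at this sensitivity Gata4 was not detectable, which does not show that it is absent. It was called in none of the 5 contrasts; among them the smallest adjusted p was 0.129, for inguinal against epididymal GFP+ cells (-0.51, 95% interval -1.08 to 0.06).

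**Figure D2:**
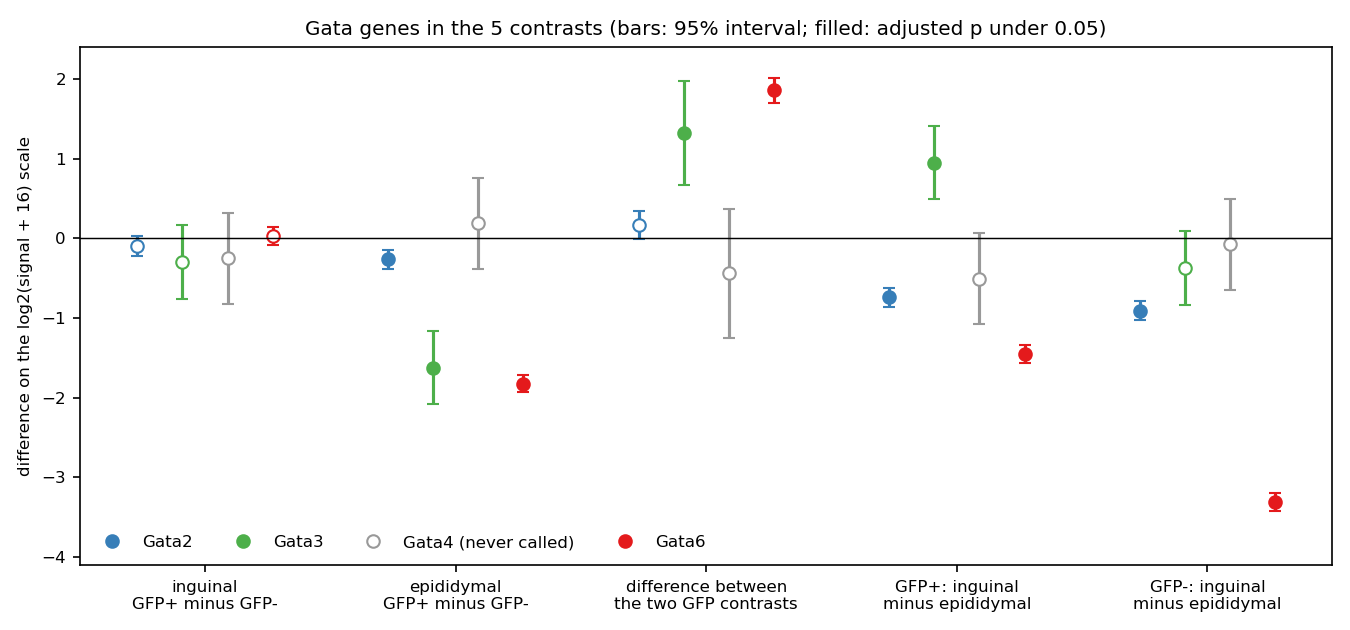
Difference on the log2(signal + 16) scale for Gata2, Gata3, Gata4 and Gata6 in the 5 contrasts, with 95% intervals. Filled points passed an adjusted p of 0.05. No gene was called in inguinal cultures; Gata2, Gata3 and Gata6 were lower in epididymal GFP+ than GFP- cells, and Gata3 alone was higher in inguinal than in epididymal GFP+ cells.

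Over the 4 genes, none was called between the inguinal fractions, where 12.6% of all genes were called (5.26% higher, 7.29% lower); none had an unadjusted p under 0.05 either. Between the epididymal fractions 3 of 4 were called, all lower in GFP+ cells, against 41.9% of all genes (21.5% higher, 20.3% lower). The depots' GFP differences differed for 2 of 4, Gata3 and Gata6, against 34.8% of all genes (16.1% higher, 18.7% lower). Between depots, 3 of 4 were called in GFP+ cells (50.8% of all genes, 23.6% higher and 27.2% lower) and 2 of 4 in GFP- cells (53.7%, 27.4% higher and 26.3% lower). At the level of probe sets the counts were 0 of 7 between the inguinal fractions (10.9% of all probe sets; 1 of 7 had an unadjusted p under 0.05), 5 of 7 between the epididymal fractions (39.5%), 4 of 7 for the difference between these contrasts (31.7%), and 5 of 7 (48.2%) and 4 of 7 (51.1%) between depots in GFP+ and GFP- cells. The median over the 4 genes was -0.94 in the epididymal contrast, against 0.01 over all genes. The contrasts share arrays, so their calls are not independent, and with so many genes called the shares among 4 genes say little by themselves.

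The genes whose profiles were most like each called Gata gene were found by the root mean square difference of mean-centred log2 values over the 12 arrays, among genes not weakly detected. For Gata6, whose own values had an SD of 1.42 over the arrays, they were Slc9a3r1 (0.12), Stard10 (0.15), B4galt4 (0.18), Spint2 (0.18) and Id1 (0.18). Slc9a3r1 is also in the list of mesothelial markers below. For Gata2 (SD 0.45) they were Kat2b, Lats2, Ier5, Tsc22d1 and Dennd6a, at 0.08 to 0.09. For Gata3 (SD 0.68) no profile was as close, and Ptprz1, Abcb1b, Slc7a3, Aox1 and Epha4 differed from it by 0.24 to 0.26. Ptprz1 had a mean signal of 1566 in inguinal GFP+ and 2278 in GFP- cells, and of 840.3 and 3116 in the GFP+ and GFP- cells of epididymal fat, the same order of groups as Gata3.

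The relatives of these genes were read next. Gata5, a partner of Gata4 and Gata6 in heart and gut, was higher in epididymal cells, but its probe sets disagreed within them. By 1450125_at it read 422, 363 and 430.3 in epididymal GFP+ and 417, 328 and 301 in epididymal GFP- cells, overlapping, with 96.8 to 159 over the inguinal arrays. By 1450126_at it read 26.1, 47.2 and 35.8 in epididymal GFP+ and 571, 524 and 521 in epididymal GFP- cells, with 7.54 to 19.4 over the inguinal arrays. By 1450126_at epididymal GFP- cells stood above all others, as for Gata6. The probe set 1450125_at gave 0.22 ± 0.15 for the epididymal GFP difference (adjusted p = 0.294), and 1450126_at gave -3.42 ± 0.20 in the fit over all probe sets (adjusted p = 1.07e-09), where the inguinal and epididymal GFP differences were 3.27 ± 0.29 apart. By 1450125_at Gata5 was lower in inguinal cells of either fraction (-1.62 in GFP+ and -1.20 in GFP-). By 1450126_at every group but epididymal GFP- lay in the range of silent genes, so its fitted differences against those groups depend on the pseudocount, and none is given between the depots in GFP+ cells.

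Trps1, an atypical GATA protein known as a repressor, was also higher in epididymal cells. It read 151, 148 and 153 in inguinal GFP+, 209, 219 and 217 in inguinal GFP-, 349, 378 and 319.7 in epididymal GFP+, and 375, 409 and 398 in epididymal GFP- cells. The depot difference was -1.13 ± 0.09 in GFP+ (adjusted p = 6.13e-08) and -0.83 ± 0.09 in GFP- cells (adjusted p = 1.19e-06). Trps1 was 1.38-fold lower in inguinal GFP+ than GFP- cells (-0.47 ± 0.09, adjusted p = 0.00267), a contrast in which no Gata gene was called. In epididymal cells it differed by -0.17 (adjusted p = 0.17). Gata1, the blood and mast cell factor, had group means of 30.5 to 59.7, within the range of silent genes. Its depot differences of -0.61 and -0.62 were just called (adjusted p = 0.0483 and 0.0418), and each call was lost under several alternatives, 14 and 5 of 21.

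Both FOG cofactors rose towards epididymal GFP- cells, as Gata6 did. Zfpm1 (1451046_at) read 1689, 1708 and 1600.2 in inguinal GFP+, 2042, 2009 and 1945 in inguinal GFP-, 2558, 2487 and 2471 in epididymal GFP+, and 4932, 4775 and 5009.8 in epididymal GFP- cells. Zfpm2 (1449314_at) read 871, 827 and 801 in inguinal GFP+, 1015, 961 and 1004 in inguinal GFP-, 2323, 2162 and 2128 in epididymal GFP+, and 3933, 4570.2 and 4067 in epididymal GFP- cells. No neighbouring groups overlapped for either of these probe sets. The other Zfpm2 probe set kept the order, with overlapping inguinal fractions, and the other Zfpm1 probe set ran only from 119 to 181 over all arrays. In epididymal cultures Zfpm1 was 1.95-fold (-0.96 ± 0.04, adjusted p = 2.65e-12) and Zfpm2 1.89-fold lower in GFP+ cells (-0.92 ± 0.06, adjusted p = 1.02e-09). Unlike Gata6, whose inguinal fractions overlapped, both were also called lower in inguinal GFP+ cells, Zfpm1 by -0.26 (adjusted p = 0.000109) and Zfpm2 by -0.25 (adjusted p = 0.00638). The inguinal Zfpm1 call rests on 1451046_at: with the mean of its probe sets it was -0.14 (adjusted p = 0.199). Between depots Zfpm2 differed by -1.39 in GFP+ and -2.06 in GFP- cells, and Zfpm1 by -0.58 and -1.29.

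**Figure D3:**
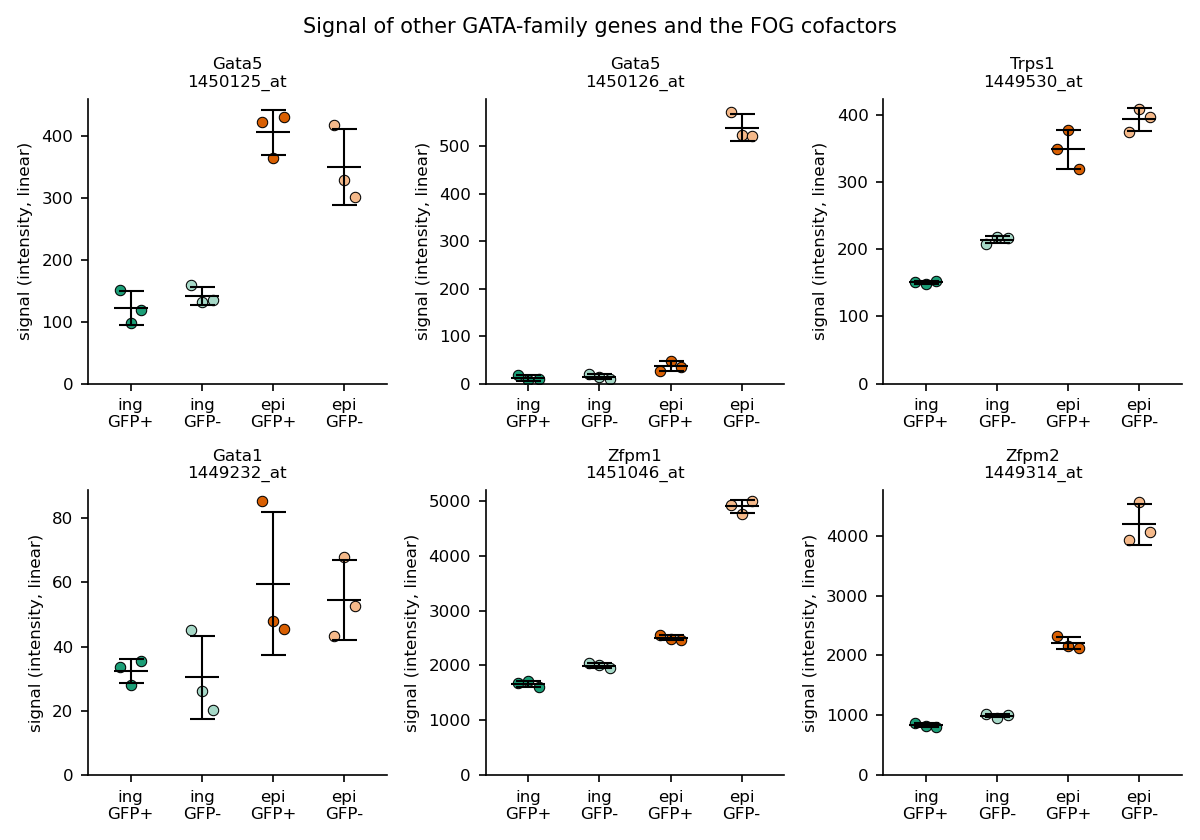
Signal (intensity, linear axis from 0) of both Gata5 probe sets and of Trps1, Gata1, Zfpm1 and Zfpm2 in the 4 groups. Points are arrays, horizontal bars the mean and whiskers the SD of 3 arrays. Zfpm1, Zfpm2 and Gata5 by 1450126_at are highest in epididymal GFP- cells, and Gata5 by 1450125_at overlaps between the epididymal fractions.

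The wider list of GATA cofactors and partners, from blood and heart, did not move one way. Of its 24 measured genes, 9 of them weakly detected, 6 were higher and 5 lower in epididymal GFP+ cells (45.8% called, against 41.9% of all genes). The median was -0.04 against 0.01. Beside Zfpm1, Lmo4, a LIM-domain adaptor, was at 9028 ± 445 in GFP- and fell to 2861 ± 142 in GFP+ cells (-1.65 ± 0.04). Mef2c, a muscle and heart transcription factor, fell from 587 ± 41.9 to 80.0 ± 2.18 (-2.65 ± 0.10), while Smad1, a transducer of BMP signals, rose (0.76 ± 0.04). In inguinal cultures 6 of 24 were lower and none higher in GFP+ cells (25% called, against 12.6% of all genes called and 7.29% lower). They included Lmo4 (-0.34), Srf (-0.22) and Lmo2 (-1.14), an adaptor of blood GATA complexes, which read 23.1 ± 4.09 in GFP+ and 70.4 ± 6.50 in GFP- cells. In inguinal cultures macrophage and leukocyte markers moved with Lmo2: their summed signal was 2593 to 2854 in GFP+ and 12361 to 14480 in GFP- cells. In epididymal cultures they did not, with sums of 3374 to 3596 in GFP+ and 3946 to 4273 in GFP- cells. Lmo2, weakly detected, was higher there in GFP+ cells (43.3 ± 14.6 against 14.8 ± 7.28, log2 difference 0.94 ± 0.23). The part of these markers in the Lmo2 values was not tested.

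Genes of the fat cell programme that Gata2 and Gata3 are known to restrain went one way where they were called in epididymal GFP+ cells. Of 15 measured, 6 were higher (40%, against 21.5% of all genes) and none lower (against 20.3%), and the median was -0.01 against 0.01 over all genes. Weakly detected were 7 of the 15. Pparg rose from 35.6 ± 11.5 in GFP- cells to 214 ± 28.0 (2.17 ± 0.15), Klf15, a factor of the fat programme, from 21.5 ± 1.77 to 141 ± 7.28 (2.07 ± 0.13), Cebpd by 0.90 ± 0.04, and the fatty acid carrier Fabp4 by 4.30 ± 0.09. In the same arrays Gata3 and Gata2 were lower in GFP+ cells. In inguinal cultures Pparg (1.28 ± 0.15), Lpl, lipoprotein lipase (1.31 ± 0.11), and Fabp4 (1.81 ± 0.09) rose, and no Gata gene was called. The list as a whole went both ways there, with 3 of 15 higher and 3 lower (40% called, against 12.6% of all genes). The decreases were Cd36, Klf15 and Cebpd, with adjusted p from 0.0201 to 0.0481, and each lost its call on leaving out inguinal GFP+ replicate 1, among other alternatives. Pparg was higher in inguinal than in epididymal cells of both fractions (1.90 in GFP+ and 2.79 in GFP-), but the list as a whole was not. In GFP+ cells 2 of the 15 genes were higher in inguinal cells and 6 lower, against 23.6% and 27.2% of all genes. In GFP- cells it was 6 higher and 6 lower, against 27.4% and 26.3%. Gata2 was lower in inguinal cells of both fractions. Gata3 was higher in inguinal GFP+ cells (0.95), in the same direction as Pparg, and was not called in GFP- cells. Whether Gata2 or Gata3 acts on these genes in these cells was not tested.

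Genes known downstream of Gata4 and Gata6 went both ways. Of 16 measured genes of the endoderm programme, 6 of them weakly detected, 5 were lower and 1 higher in epididymal GFP+ cells (37.5% called, against 41.9% of all genes). Dab2, an endocytic adaptor, fell from 3552 ± 64 in the GFP- fraction to 729 ± 27.5 in the GFP+ fraction (-2.26 ± 0.05), and the laminin chains Lamc1 (-0.61 ± 0.04) and Lamb1 (-0.27 ± 0.03) fell. Lama1, the laminin alpha chain of embryonic basement membrane, was the increase, from 50.7 ± 5.92 to 1947 ± 159 (4.88 ± 0.11). Of 21 measured heart and gonad targets, 10 of them weakly detected, 4 were lower and 3 higher (33.3% called, against 41.9% of all genes). Bmp4, a growth factor, fell from 8008 ± 306 to 953 ± 27.9 (-3.05 ± 0.15), Nppb, the B-type natriuretic peptide, from 2559 ± 13.5 to 437 ± 34.9 (-2.51 ± 0.11), and the cardiac troponin Tnnt2 from 878 ± 177 to 57.4 ± 4.30 (-3.59 ± 0.23). Inhbb, an activin subunit, rose from 265 ± 21.0 to 3045 ± 136 (3.45 ± 0.05). Bmp4 was near the level of silent genes in both inguinal fractions (40.3 and 39.4), where Gata6 had its lowest but still clear signal (773 and 756). In GFP+ cells 4 of 16 endoderm genes were lower and 3 higher in inguinal than in epididymal cells. For the heart and gonad targets it was 8 of 21 lower and 1 higher, against 27.2% of all genes lower and 23.6% higher. In GFP- cells 7 of 16 endoderm genes were lower and 2 higher in inguinal than in epididymal cells. The heart and gonad targets had 8 of 21 lower and 2 higher there, against 26.3% of all genes lower and 27.4% higher. Whether Gata6 acts on any of these genes here was not tested.

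In epididymal cultures most mesothelial markers moved with Gata6. Of 13 measured, 12 were lower in epididymal GFP+ than in GFP- cells and none higher, against 20.3% of all genes lower, and the median was -2.70 against 0.01 over all genes. The exception was the keratin Krt19 (-0.15, adjusted p = 0.325), and the cadherin Cdh1 was just called (adjusted p = 0.0495) and lost its call under 10 of 21 alternatives. Upk3b, a uroplakin, had 9459 ± 387 in the GFP- and 600 ± 22.8 in the GFP+ fraction and so fell by 3.94. Msln, the surface protein mesothelin, fell from 2331 ± 79.6 to 181 ± 17.5 (-3.58 ± 0.14), and the scaffold protein Slc9a3r1 by 1.72 on the log2 scale. Slc9a3r1 was the closest profile to Gata6 in the search above, over these same arrays. Its closeness to the -1.82 of Gata6 therefore adds nothing to that search. The summed signal of the 13 markers was 62868 to 65469 over the epididymal GFP- arrays, 15048 to 15601 over epididymal GFP+, 4118 to 4324 over inguinal GFP- and 3864 to 4298 over inguinal GFP+ arrays. The epididymal order is that seen for Gata6, Zfpm1 and Zfpm2. Between the inguinal fractions, where Gata6 differed by 0.03, 5 of 13 markers were called (38.5%, against 12.6% of all genes). Krt7 (1.82) and Bnc1 (0.95) were higher in GFP+ cells, and Nkain4 (-0.83), Efemp1 (-0.75) and Slc9a3r1 (-0.20) were lower. Between depots 10 of 13 were lower in inguinal GFP+ cells (against 27.2% of all genes) and 11 of 13 in inguinal GFP- cells (against 26.3%). The keratins Krt7 (3.01) and Krt19 (2.66) were higher in inguinal GFP+ cells, and Krt19 (2.39) in inguinal GFP- cells. In inguinal GFP+ and GFP- cells the markers Upk3b (10.5 and 12.5), Msln (37.2 and 47.3) and Krt8 (41.3 and 43.7) lay near the level of silent genes. Others had clear signal there, among them Slc9a3r1 (1547 and 1780), Krt19 (1292 and 1186), the matrix protein Efemp1 (395 and 676) and Krt7 (564 and 148). The part that mesothelial cells have in the Gata6 values was not tested.

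**Figure D4:**
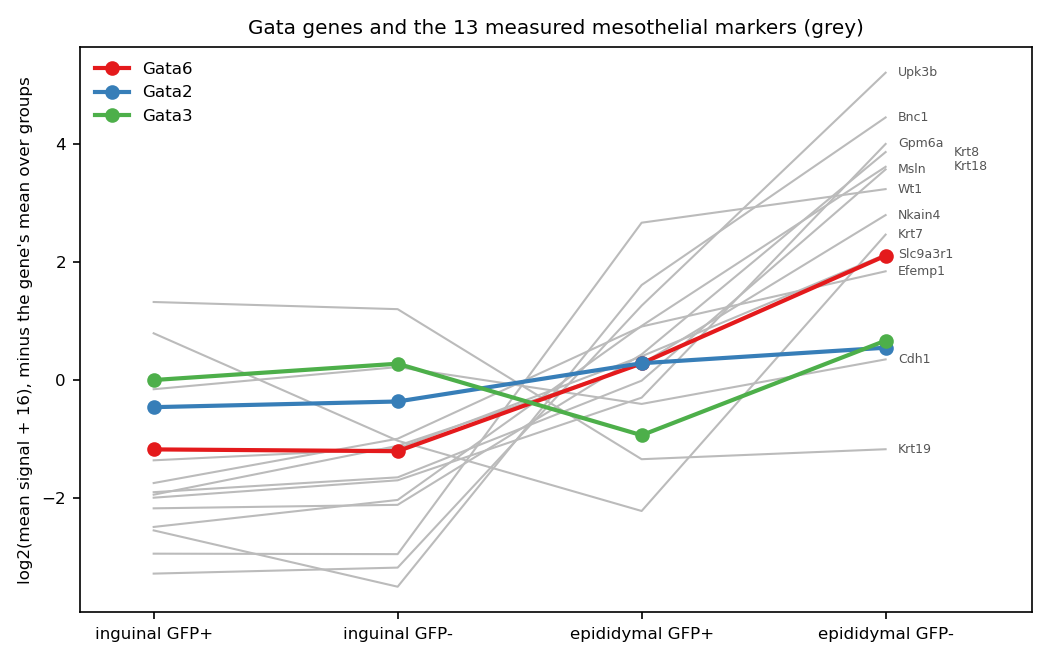
Group profiles of Gata6, Gata2, Gata3 and the 13 measured mesothelial markers (grey), as log2(mean signal + 16) minus the gene's mean over the 4 groups. Gata6 rises with most markers from inguinal to epididymal GFP+ to epididymal GFP- cells. It runs beside Slc9a3r1, the gene found to be most like it over these same arrays. Krt19 does not rise, and Cdh1, Krt7 and Gata3 dip in epididymal GFP+ cells.

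Markers of other cells known to use a Gata gene were counted in the same way, and their part in the Gata values was not tested. The counts in epididymal GFP+ cells below stand beside 20.3% of all genes lower and 21.5% higher. Macrophage and leukocyte markers were lower in inguinal GFP+ cells (14 of 22, against 7.29% of all genes, and none higher), the contrast in which Gata6 differed by 0.03, and 8 of 22 were lower and 1 higher in epididymal GFP+ cells, with sums of 3374 to 3596 in GFP+ and 3946 to 4273 in GFP- cells. Of 14 measured markers of large peritoneal macrophages, 5 were lower and 2 higher in epididymal GFP+ cells; their sums, 42220 to 43778 over the inguinal arrays, 40684 to 41735 over epididymal GFP+ and 46384 to 46933 over epididymal GFP- arrays, were mostly the matrix protein Fn1. Among the defining ones Icam2 had group means of 13.1 to 21.6 and F5 of 9.56 to 30.5, as silent genes do. Selp, the adhesion protein P-selectin, moved in the direction of Gata6, at 493 ± 156 in epididymal GFP- and 21.4 ± 4.07 in GFP+ cells, and so did the lipoxygenase Alox15 at a low level (-1.07). Rarb, a retinoic acid receptor, moved in the opposite direction (3.47 ± 0.10). Of 11 mast cell markers 10 were weakly detected, 1 was higher and none lower in epididymal GFP+ cells. Their sums were 883 to 1097 there, 554 to 704 in epididymal GFP- and 845 to 1113 in inguinal cells. The increase was Mitf, the gene not weakly detected and the largest part of the sums (586 ± 35.8 in epididymal GFP+ and 227 ± 11.3 in GFP- cells). The defining genes Cpa3 (11.3 to 19.1) and Cma1 (9.20 to 17.1) lay at the silent level. Of 15 T cell and innate lymphoid markers 3 were higher and 1 lower in epididymal GFP+ cells, with sums of 6302 to 6625 there, 6870 to 7459 in epididymal GFP- and 9595 to 10358 in inguinal cells, and 12 were weakly detected; Cd3e (19.8 to 50.6) and Il13 (2.10 to 5.64) were among them. The rest of that list, Thy1, Rora and Zap70, had clear signal in these fibroblasts, and Thy1 was lower and Rora higher in epididymal GFP+ cells (-0.71 and 1.43). Thy1, with group means from 3427 to 8130, made up most of the sums of that list.

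Endothelial and luminal epithelial lists, for cells known to use Gata2 and Gata3, held both silent and well-expressed genes. Of 17 endothelial markers, 12 of them weakly detected, 4 were higher and 2 lower in epididymal GFP+ cells. Their sums were 2267 to 2472 over the inguinal arrays, 3226 to 3354 over epididymal GFP+ and 6254 to 6558 over epididymal GFP- arrays. Pecam1 (11.5 to 22.5) and Vwf (10.5 to 12.6) were at the silent level in all groups, while the receptor Kdr (4469 ± 157 in GFP- and 552 ± 24.2 in GFP+ cells) and the adhesion protein Esam (825 ± 25.1 and 124 ± 10.3) were high in epididymal GFP- cells. Kdr alone made up most of the epididymal GFP- sums. The 4 that were higher in epididymal GFP+ cells were Eng, a TGF-beta co-receptor (1464 ± 61.3 in GFP+ and 196 ± 17.2 in GFP- cells), the cadherin Cdh5 (166 ± 28.1 and 33.4 ± 6.95), Emcn (1.02) and Sox18 (0.97). Of 15 mammary luminal markers, 11 of them weakly detected, 5 were lower and 1 higher in epididymal GFP+ cells. Their sums were 1530 to 1892 over the inguinal, 1581 to 1786 over the epididymal GFP+ and 8420 to 8579 over the epididymal GFP- arrays. The decreases included the keratins Krt8 and Krt18, which are also in the mesothelial list, and Elf3, an epithelial transcription factor (492 ± 94.5 in GFP- and 228 ± 29.2 in GFP+ cells). Epcam (21.2 to 34.5) and Foxa1 (7.84 to 25.6) stayed at the silent level in every group.

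**Figure D5:**
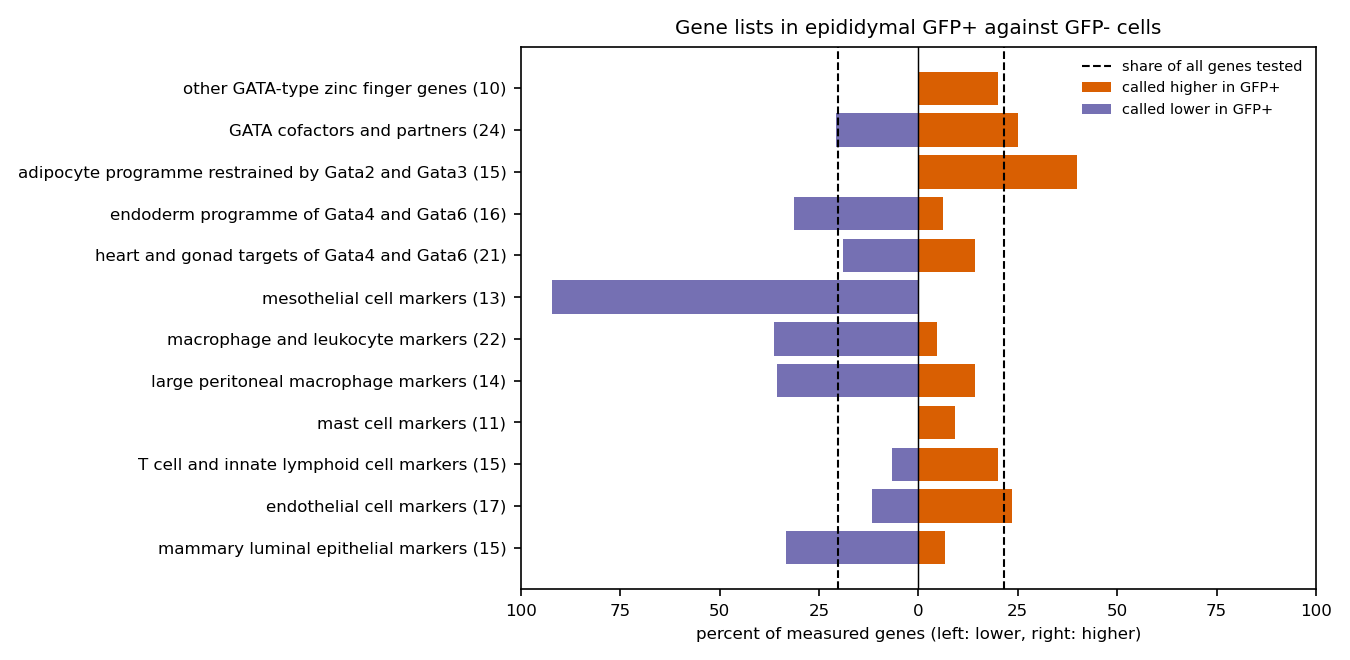
Share of the measured genes of each list called higher (right) or lower (left) in epididymal GFP+ than in GFP- cells; the number of measured genes stands in brackets, and dashed lines mark the shares over all genes, 21.5% higher and 20.3% lower. The mesothelial list has 12 of 13 genes lower; most other lists lie nearer the dashed lines.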

How the data were processed

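The authors deposited probe set intensity on a linear scale for 12 arrays, in the series' value table. Biotin-labelled cRNA was made by in vitro transcription from oligo-dT-primed cDNA, per the labels' protocols. The signal algorithm, background correction and scaling are not given in the sources used here. Scanner files were not analysed here. Of 22626 probe sets, 20380 had 1 gene symbol, 691 several and 1555 none, from GEO's platform annotation; only those with 1 symbol were used, updated through Entrez identifiers with RefSeq's table of GRCm38.p6 (24 symbols had no current match).

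The fits ran on log2(intensity + 16). Of several probe sets of a gene, the brightest on average was used (12393 genes). Fits used limma 3.58.1 in R 4.3.3 (lmFit, eBayes with a trend) over all 12 arrays, two-sided, with Benjamini-Hochberg adjustment over all genes, or over all probe sets where stated, and were tested on simulated data. This pseudocount understates fold changes of low genes. Groups came from the sample titles, and the number of arrays limits the precision. Same-numbered arrays of different groups did not deviate together (r from -0.06 to 0.04 over 18 pairs, none over 0.1), so the numbers were not used as pairs.

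The members and the 12 gene lists were chosen with earlier results of these data known. Names follow a written rule: the 4 Gata genes, Gata1, Gata5, Trps1, Zfpm1, Zfpm2, Zfp423, up to 4 called genes per list and contrast by adjusted p, and the 5 most alike profiles, of which not all are named. Named outside it, after their values were seen, were Klf15 and Cebpd in inguinal cultures, Cdh1, Krt19, Alox15, Emcn and Sox18, the mesothelial markers and Bmp4 in inguinal cells, Pdgfra, and the undetected markers given to show a level. Alternatives were each array left out in turn, the replicate number as a block, scaling by quantiles or medians, a pseudocount of 1 or 64, no weakly detected genes, a fit of the compared groups alone, no variance trend, and other probe set rules.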

Additional observations from a re-analysis of the deposited data

Results flagged for a closer look

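For several genes a test of the difference itself found that the GFP+ against GFP- difference was not the same in the inguinal and the epididymal depot (limma, adjusted p under 0.05); values are the inguinal minus the epididymal difference on the log2 scale. Gata6 gave 1.85 ± 0.07 (adjusted p = 1.23e-11) and Gata3 1.32 ± 0.31 (adjusted p = 0.00277). The FOG cofactors gave 0.70 ± 0.05 for Zfpm1 (adjusted p = 1.8e-08) and 0.67 ± 0.08 for Zfpm2 (adjusted p = 4.8e-06). Zfp423, which the sort reports on, gave -1.56 ± 0.25 (adjusted p = 0.000138). In the fit over all probe sets, Gata2 by 1428816_a_at gave 0.35 ± 0.12 (adjusted p = 0.0447) and Gata5 by 1450126_at 3.27 ± 0.29 (adjusted p = 2.14e-07), where the other probe set of each gene was not called. The Gata5 value depends on the pseudocount, since 3 of 4 groups lay in the range of silent genes by that probe set.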

How the results depend on the processing

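Gata6 and Gata2 kept their direction and call in every alternative run for the epididymal GFP contrast and both depot contrasts, as did Gata3 for the epididymal contrast, the depot contrast in GFP+ cells and the difference between depots; Gata6 in the epididymal contrast ranged from -1.90 to -1.79. With the replicate number as a block Gata6 gave -1.82 there, and the block changed no call of a Gata gene. Gata2's difference between depots became called after median centring (0.24, adjusted p = 0.0257; adjusted p from 0.0257 to 0.305 over its alternatives). Leaving out arrays in turn turned the sign of uncalled values: Gata6 in inguinal cultures ranged from -0.0061 to 0.082, Gata4 in epididymal cultures from -0.081 to 0.443, and Gata4 between depots in GFP- cells from -0.34 to 0.18. Gata4 was not run with weakly detected genes left out, since it is one of them. Fitting every probe set called 8044 in the epididymal contrast, 9822 between depots in GFP+ and 10415 in GFP- cells, against 5187, 6292 and 6656 genes, because more features are tested. Median centring moved the split in inguinal cultures from 652 higher and 904 lower to 1056 and 665. It moved the epididymal split from 2668 and 2519 to 2306 and 2959, and the split between depots in GFP+ cells from 2922 and 3370 to 3837 and 2604. The split of the difference between depots moved from 2000 and 2313 to 2704 and 1772. Of 2616 recomputed list counts 2460 stayed within 1.5 times the reported count. Low signal limits Gata3, Gata4 and Gata1.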

Other observations

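The list of other genes with a GATA-type zinc finger holds Gata1, Gata5 and Trps1 beside genes for subunits of chromatin complexes. Of 10 measured, 2 were higher and none lower in epididymal GFP+ than in GFP- cells (20% called, against 41.9% of all genes; Gata2, Gata3 and Gata6 were lower there). Gatad2b, a subunit of the NuRD repressor complex, read 1835 ± 91.1 in epididymal GFP+ and 923 ± 67.1 in GFP- cells (0.98 ± 0.07, adjusted p = 3.56e-09, limma), and 1007 ± 80.5 and 1148 ± 46.3 in the inguinal fractions. Between depots 9 of 10 were called in GFP+ cells, 7 of them lower in inguinal cells as Gata2 and Gata6 were, Gata5 (-1.62) and Trps1 (-1.13) among them, against 50.8% of all genes called and 27.2% lower. In GFP- cells, where Gata2 and Gata6 were also lower in inguinal cells, 5 were lower and 3 higher. All genes stood at 26.3% lower and 27.4% higher there, and Gatad2b was among the higher ones (0.31).

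Runx1, a blood and mesenchymal transcription factor that works beside GATA factors, was also higher in epididymal GFP+ cells, at 3076 ± 26.2 against 1582 ± 139 in GFP- cells (0.96 ± 0.06, adjusted p = 1.7e-09). Both it and Gatad2b had their highest group mean in epididymal GFP+ cells, where Gata3 had its lowest. Between the epididymal fractions 21.5% of all genes were called higher in GFP+ cells, and a link to Gata3 was not tested. Runx1 was named here after its values were seen.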
